A study of Mus musculus with 18 samples.

Results

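RNERVK23-int and the rows named RLTR30 are repeat subfamilies of endogenous retroviruses, and they make up 8 of the 1365 repeat rows measured in mouse cells with and without inhibition of the chaperone HSP90. The 8 rows were taken by name from the authors' deposited tables: RNERVK23-int, and the 7 rows whose name begins with RLTR30. RNERVK23-int and RLTR30D_RN were then set apart from the other 6 as a pair because of the values they have in the comparisons described here. Those values are therefore given as a description, with no test of the pair. A row sums the reads of all genomic copies of a repeat, so it does not say how many copies gave the reads, nor which.

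The study sequenced 18 RNA libraries, 3 in each of 6 groups, and asked how HSP90 bears on the effects of endogenous retroviruses. Embryonic stem cells (ESCs) of the strain background 129S1/CASTEiJ, kept in 2i medium, were untreated or given 100 nM NVP-AUY922, an inhibitor of HSP90, for 24 h. Macrophages grown with M-CSF from bone marrow of the BALBC/C57BL6 background were untreated or given 500 nM for 24 h. Neuronal progenitor cells (NPCs) of the 129S1/CASTEiJ background, grown in N2B27 medium with EGF and FGF, were untreated or given 50 nM for 24 h. Effects of cell type, of dose and, for macrophages, of strain cannot be told apart. The labels do not say that the 3 libraries of a group came from separate cultures or animals, so standard errors may cover technical spread alone. The tables hold repeats and no genes, so the labelled cell types could not be checked against marker genes.

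An endogenous retrovirus is the inherited copy of a retrovirus that once entered the germ line. An intact copy has an internal part with the viral genes, flanked on both sides by a long terminal repeat (LTR), which holds the promoter and the end of the transcript. Recombination between the LTRs often removes the internal part and leaves a solitary LTR. In mouse cells most such copies are kept silent by DNA methylation and by repressive histone marks that KRAB zinc finger proteins and TRIM28 bring to them. LTRs that escape can drive their own RNA or act on genes nearby. In the naming of these repeats, the ending -int marks an internal part, _MM a sequence described in mouse and _RN one described in rat. ERV1 and ERVK are separate classes of retrovirus. In the deposited tables RNERVK23-int is an ERVK row, whereas all 7 RLTR30 rows, RLTR30D_RN included, are classed as ERV1 LTRs.

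Each of the 3 deposited tables compares the 3 treated with the 3 untreated libraries of 1 cell type. The base mean is the mean over its 6 libraries of reads scaled for depth, and the log2 fold change is the log2 of the ratio between the groups. The tables do not say which group is the numerator, nor that it is the same group in each table. A negative value therefore means less RNA in the numerator group and more in the denominator group, and neither is called treated. Numbers after ± are the SE, the standard error that the authors give for a log2 fold change, and values per library were not analysed here. Summed over all rows the base means came to 3840470 normalised reads in ESCs, 1987974 in macrophages and 2084220 in NPCs.

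The pair lay far on the negative side in each cell type, and the other RLTR30 LTRs lay near 0. In macrophages RNERVK23-int was at -5.59 ± 0.29 and RLTR30D_RN at -5.76 ± 0.27 in the authors' deposited table, so the groups differed 48.3-fold and 54.1-fold. In NPCs they had values of -4.57 ± 0.34 and -3.77 ± 0.34 in the authors' deposited table (23.7-fold and 13.6-fold). In ESCs they had values of -1.64 ± 0.15 and -1.60 ± 0.13 in the authors' deposited table (3.12-fold and 3.03-fold). The 6 other rows spanned only -0.61 to 0.45 in ESCs, -0.50 to 0.42 in macrophages and -0.22 to 0.45 in NPCs in the authors' deposited table. No other RLTR30 row came within 0.99 of the pair in ESCs, 5.10 in macrophages or 3.55 in NPCs on the log2 scale.

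**Figure D1:**
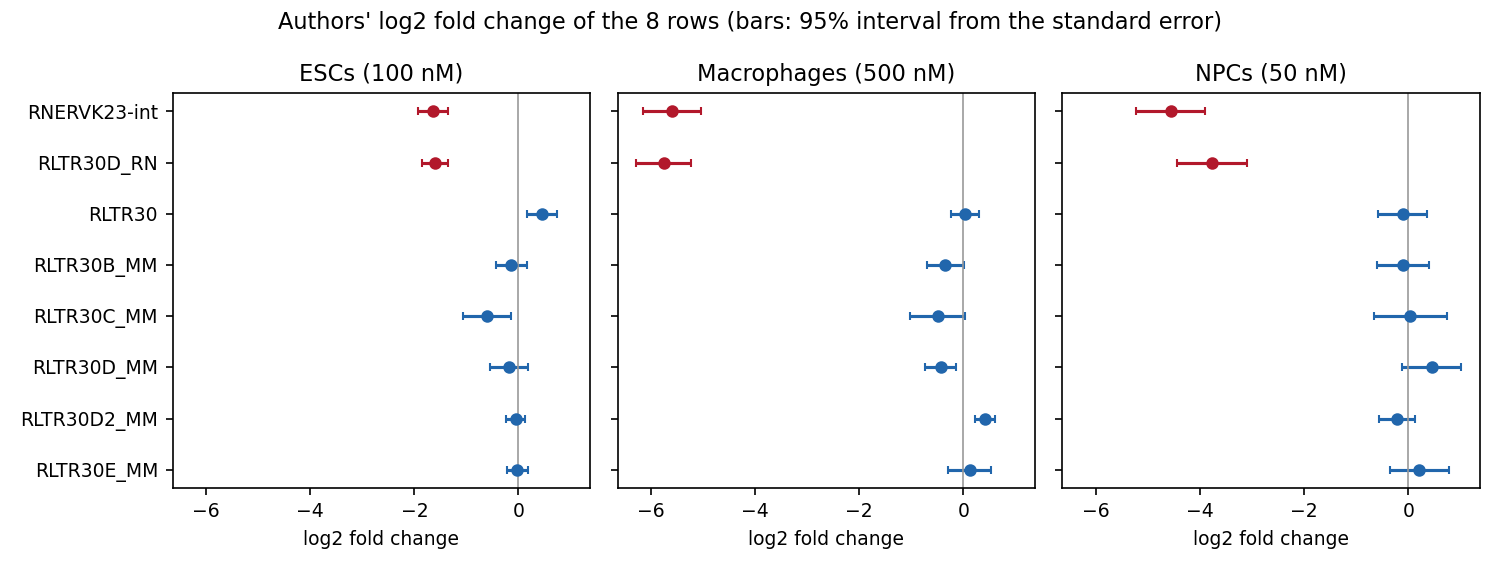
Log2 fold change of the 8 rows (x axis) in the authors' deposited table of each cell type, with the name of the row on the y axis and bars of 1.96 SE. The pair (red) lies between -5.76 and -1.60, and the other 6 rows (blue) lie between -0.61 and 0.45.

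RNERVK23-int is the internal part, the stretch that would hold the viral genes, and it is the only member that is no LTR. Its base mean in the authors' deposited table was 523 (ESCs), 3304 (macrophages) and 1012 (NPCs). Its log2 fold change ran in the order macrophages, NPCs, ESCs from the most negative. The step from NPCs to macrophages was -1.03 ± 0.45, and that from ESCs to NPCs was -2.93 ± 0.37. As the pair was chosen from these values, the steps are given without a test.

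RLTR30D_RN, an LTR, had the same order. Its base mean was 806 (ESCs), 3267 (macrophages) and 1441 (NPCs) in the authors' deposited table. For this row the step from NPCs to macrophages was -1.99 ± 0.44. The step from ESCs to NPCs was -2.17 ± 0.37. These steps take the tables as oriented alike, and doses differ between the cell types. If the numerator were another group in 1 of the tables, its sign would turn and the sizes within each table would stay.

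Among all repeats, RLTR30D_RN and RNERVK23-int had the most negative values in macrophages, and the next row, the murine leukaemia virus LTR RLTR4_Mm, was at -2.26 ± 0.15 in the authors' deposited table. In NPCs the pair was again at the negative end, in the opposite order, and the DNA transposon Charlie15a followed at -2.64 ± 0.25 in the authors' deposited table. In ESCs the pair was followed at once by RLTRETN_Mm, an LTR of early transposons, at -1.59 ± 0.10 in the authors' deposited table. The pair's distance from the rest was thus a feature of macrophages and NPCs in these tables, while in ESCs 6 ERVK rows were more negative. Within the class ERV1, RLTR30D_RN was below the lowest other tested row in ESCs too, which was at -1.12 in the authors' deposited table. These ranks belong to the values from which the pair was chosen.

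**Figure D2:**
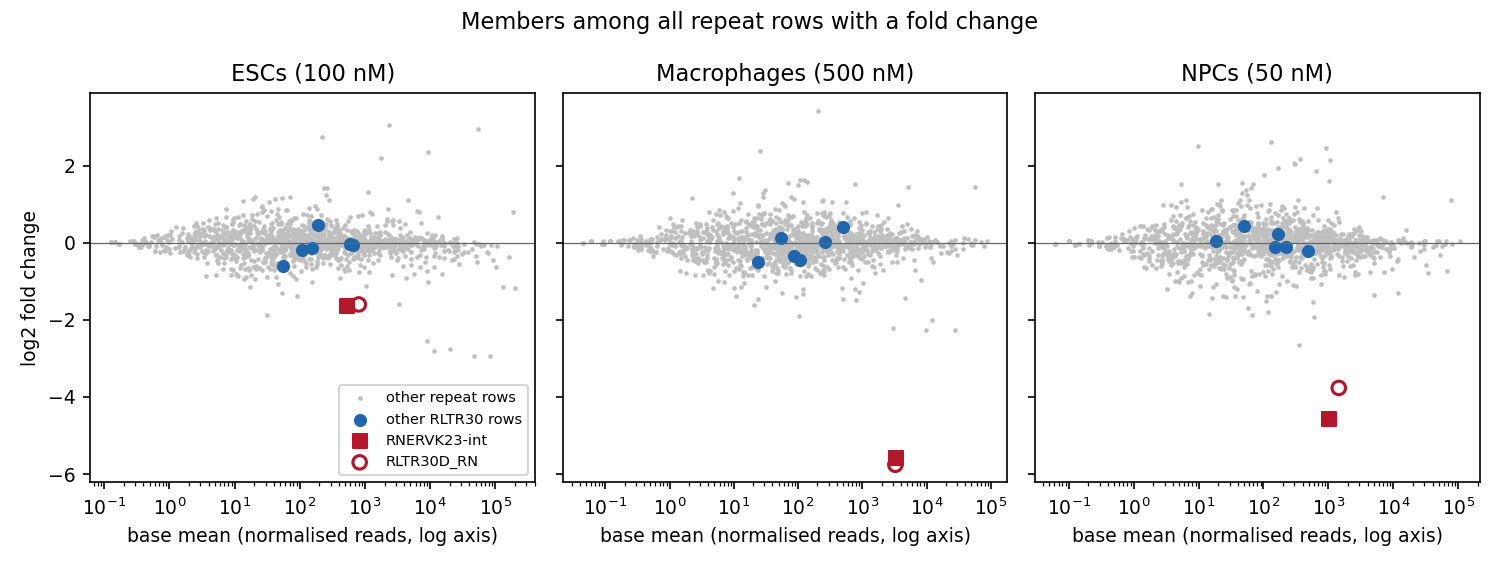
Log2 fold change (y axis) against base mean in normalised reads (x axis, log scale) for every repeat row with a fold change, in each cell type. In macrophages and NPCs the pair (red) lies below all other rows (grey), and the other RLTR30 rows (blue) lie within the body of rows.

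The other RLTR30 LTRs had no common direction. Of the 6, 1 was negative in all 3 tables, 3 were negative in 2 tables and 2 were negative in 1 table, and their median was -0.09 (ESCs), -0.16 (macrophages) and -0.03 (NPCs). Over all tested rows the medians were 0.00191, -0.01 and 0.00089 in that order. The interval of 1.96 SE held 0 for 4 of the 6 rows in ESCs, 4 in macrophages and all 6 in NPCs. The share of all tested rows whose interval holds 0 was not computed, so nothing is read from this count. The median SE of the 6 rows was 0.15 in ESCs and 0.16 in macrophages but 0.27 in NPCs, the least precise of the 3 tables for these rows.

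All 8 rows carried an adjusted p in each table, so none was lost to the authors' filter on low values. In ESCs 4 of the 8 had an adjusted p under 0.05 in the authors' deposited table, where 251 of 1132 tested rows, or 22.2%, did. These were the pair, RLTR30C_MM and RLTR30, with 3 of the 4 on the negative side, where 12.0% of tested rows were called, and 1 on the positive side, where 10.2% were. In macrophages 4 of 8 were called in the authors' deposited table, again 3 of them negative, beside 25.8% of 1255 tested rows on either side and 12.5% on the negative and 13.3% on the positive side. These were the pair, RLTR30D_MM and RLTR30D2_MM. In NPCs the pair alone was called in the authors' deposited table, 2 of 8, beside 11.8% of 1249 tested rows on either side and 6.81% on the negative and 4.96% on the positive side. As the pair was chosen from these contrasts, nothing is read from the counts. Called members other than the pair were 1 positive and 1 negative row in ESCs, 1 positive and 1 negative row in macrophages, and 0 in NPCs, where the unadjusted p was also under 0.05 for 0 of the 6. DESeq2 was the tool of the authors' deposited tables.

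Of the plain LTRs, RLTR30 was the one positive member called in ESCs, at 0.45 ± 0.15 with an adjusted p of 0.0129 from DESeq2 in the authors' deposited table. It was at 0.03 ± 0.14 in macrophages and -0.10 ± 0.24 in NPCs in the authors' deposited table. Its base mean was 191 (ESCs), 267 (macrophages) and 222 (NPCs) in the authors' deposited table. The value in ESCs is thus a 1.37-fold difference, past 1.96 SE there and within 1.96 SE in the other cell types.

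RLTR30D2_MM, described in mouse and close to RLTR30D_RN by its name, had the highest base mean of the 6 other rows in each table. Its base mean was 653 (ESCs), 496 (macrophages) and 481 (NPCs) in the authors' deposited table. In macrophages it was on the positive side at 0.42 ± 0.10, 1.34-fold apart, with an adjusted p from DESeq2 of 0.000168 in the authors' deposited table. It thus lay on the opposite side of the contrast from RLTR30D_RN there. Its values of -0.05 ± 0.09 in ESCs and -0.22 ± 0.18 in NPCs in the authors' deposited table were both within 1.96 SE of 0.

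RLTR30D_MM, the mouse-named LTR that shares the letter D with RLTR30D_RN, was at -0.44 ± 0.15 in macrophages, with an adjusted p of 0.0154 from DESeq2 in the authors' deposited table. In ESCs it was at -0.18 ± 0.18 and in NPCs at 0.45 ± 0.29 in the authors' deposited table. Its base mean was 107 in both ESCs and macrophages and 50.4 in NPCs in the authors' deposited table. At 1.36-fold in macrophages, its difference is small beside the 54.1-fold of RLTR30D_RN.

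RLTR30C_MM was the most thinly counted member, with base means of 56.0 (ESCs), 24.2 (macrophages) and 18.7 (NPCs) in the authors' deposited table. It was at -0.61 ± 0.23 in ESCs, with an adjusted p of 0.0449 from DESeq2 in the authors' deposited table. At -0.50 ± 0.27 in macrophages and 0.04 ± 0.36 in NPCs it was within 1.96 SE of 0 in the authors' deposited table. The call in ESCs was lost when the p-values of all rows were adjusted together, without the authors' filter.

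RLTR30B_MM and RLTR30E_MM were called in none of the 3 tables by DESeq2. RLTR30B_MM was at -0.14 ± 0.15, -0.34 ± 0.18 and -0.10 ± 0.26 in ESCs, macrophages and NPCs in the authors' deposited table, and it is the one LTR outside the pair that was negative in all 3. RLTR30E_MM was at -0.03 ± 0.10, 0.12 ± 0.21 and 0.22 ± 0.29 in the same order in the authors' deposited table. Their unadjusted p was under 0.05 in none of the tables either.

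Between cell types the 6 rows gave 18 differences of log2 fold change, taking the tables as oriented alike. For 5 of them the interval of 1.96 SE left out 0, with no adjustment for their number. The differences of a row are not independent of each other. The share over all repeat rows was not computed, so nothing is read from this count. RLTR30D2_MM was higher in macrophages than in ESCs by 0.47 ± 0.14 and than in NPCs by 0.64 ± 0.21. RLTR30D_MM in macrophages minus NPCs was -0.89 ± 0.32. RLTR30 in macrophages minus ESCs was -0.42 ± 0.20 and in NPCs minus ESCs -0.56 ± 0.28. The upper ends of these RLTR30 intervals were -0.03 and -0.0026 in that order. For these rows the largest such difference is thus under 1 on the log2 scale, and RLTR30D_MM and RLTR30D2_MM lay on opposite sides in macrophages.

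The spread behind the pair's values was wide for rows of their abundance. In macrophages the SE of RLTR30D_RN was 0.27 in the authors' deposited table, against a median of 0.07 over the 117 other rows with a base mean within 2-fold of its own, of which 3 had an SE as large. For RNERVK23-int 3 of 116 such rows had an SE as large in macrophages, 6 of 199 in NPCs and 3 of 224 in ESCs. For RLTR30D_RN it was 6 of 186 in NPCs and 2 of 211 in ESCs. If both groups vary alike, an SE of this size in macrophages corresponds to a coefficient of variation between libraries of about 22.6% for RLTR30D_RN and 24.3% for RNERVK23-int. A row with few reads in 1 group has a larger SE from counting alone, and the part of this in the spread was not tested.

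The summed level of the pair, over treated and untreated libraries, differed between the cell types far more than the summed level of the other RLTR30 rows. This does not hold for each of those rows, as RLTR30E_MM alone varied 5.50-fold. Each table was normalised by itself, so levels are set across tables only as a share of the summed base mean of all repeat rows. The pair together took 0.0346% of that sum in ESCs, 0.331% in macrophages and 0.118% in NPCs, a range of 9.56-fold. The other 6 rows together took 0.0455%, 0.0520% and 0.0524% in the same order, a range of 1.15-fold. Of the reads in the 8 rows, the pair accounted for 43.2% in ESCs, 86.4% in macrophages and 69.2% in NPCs.

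Row by row, the share of RNERVK23-int varied 12.2-fold over the cell types and that of RLTR30D_RN 7.83-fold. Of 1121 rows tested in all 3 tables, 42 varied more than RNERVK23-int and 80 more than RLTR30D_RN, and the median row varied 2.15-fold. These shares pool the treated and untreated libraries, whose levels differ up to 54.1-fold for the pair, so they are no level of either group. Both were highest in macrophages and lowest in ESCs. RLTR30E_MM ran the other way, with 0.0153% in ESCs, 0.00814% in NPCs and 0.00278% in macrophages, a 5.50-fold range. The near-constant sum of the 6 rows thus holds 1 row that varied more than most repeats, since 126 of the 1121 rows had a wider range than RLTR30E_MM. The remaining 5 rows varied between 1.47-fold, for RLTR30D2_MM, and 2.71-fold, for RLTR30.

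The base mean and the log2 fold change together give the level of each group, as far as the fold change is the ratio of the 2 group means. In the denominator group the pair summed to 12889 normalised reads per library in macrophages, 4628 in NPCs and 2003 in ESCs. In the numerator group it summed to 253 in macrophages, 279 in NPCs and 653 in ESCs. As shares of the summed base mean of the table, the denominator groups were at 0.648%, 0.222% and 0.0522% in that order, a 12.4-fold range. The numerator groups were at 0.0127%, 0.0134% and 0.0170%, a 1.34-fold range. Both ranges take the numerator to be the same group in each table, which is not stated. With the ESC table turned they became 38.1-fold and 4.11-fold, with the macrophage table turned 17.5-fold and 48.4-fold, and with the NPC table turned 48.4-fold and 17.5-fold. The narrow range of the numerator groups thus rests on this assumption. With the fold changes of both rows moved together by 1.96 SE, and the base mean held, the numerator shares ran from 0.00878% to 0.0183% in macrophages, from 0.00860% to 0.0206% in NPCs and from 0.0148% to 0.0195% in ESCs. These are bounds from the fold change alone and not intervals of the level, since the error of the base mean is left out.

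In the same computation the pair made up 92.9% of the reads of the 8 rows in the denominator group of macrophages and 18.9% in the numerator group. In NPCs it made up 80.5% and 20.8%, and in ESCs 53.2% and 27.3%. The other 6 rows summed to 988 and 1081 reads in the 2 macrophage groups, 1120 and 1063 in NPCs and 1761 and 1737 in ESCs. Where the authors' fold changes were drawn towards 0, as DESeq2 can do, the numerator levels of the pair are overestimates. The deposited rows show that such shrinkage was applied to rows with few reads. RNLTR23 has an SE of 0.15 in macrophages in the authors' deposited table, where counting alone would allow no less than 2.73 for a base mean of 0.19. In each table every row with a base mean above 0 and under 1 has an SE under its counting limit, 59 of 59 in ESCs, 75 of 75 in macrophages and 62 of 62 in NPCs. Over all rows with reads it was 283 of 1345 in ESCs, 343 of 1306 in macrophages and 252 of 1326 in NPCs. Rows with a base mean of 1 or more were thus drawn in as well. By how much the folds of the well-counted pair were drawn in is not known, and they are read as possible underestimates.

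**Figure D3:**
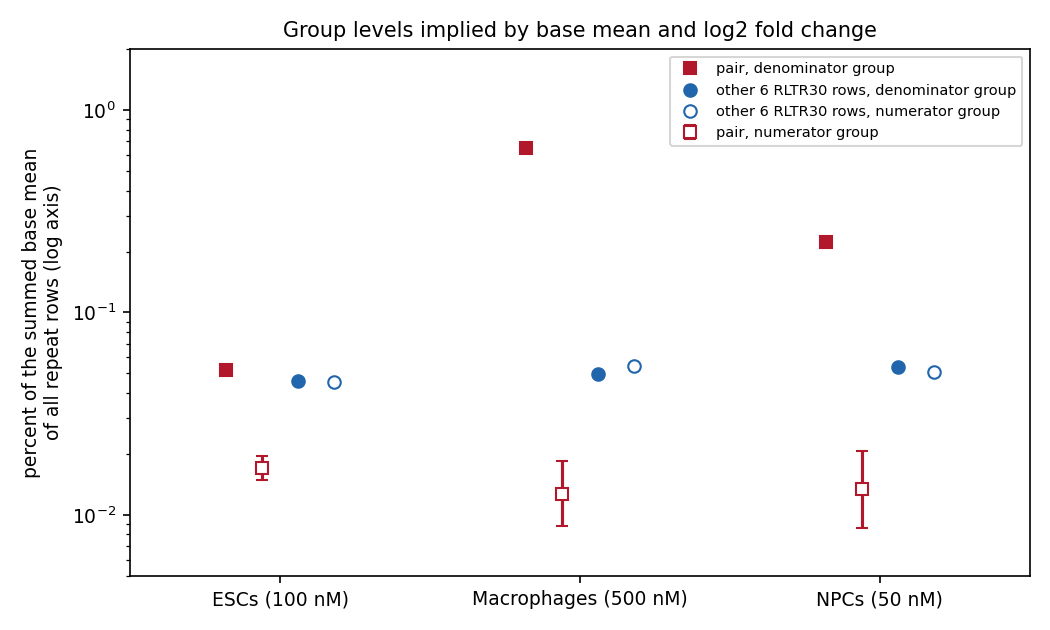
Group levels implied by base mean and log2 fold change, as a percent of the summed base mean of all repeat rows (y axis, log scale), for each cell type (x axis). Squares are the pair, filled for the denominator and open for the numerator group, with bars on the open squares for a fold change moved by 1.96 SE with the base mean held, and circles the sum of the other 6 RLTR30 rows. The filled squares span 0.0522% to 0.648%, and the open squares span 0.0127% to 0.0170%.

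The internal part and the LTR of the pair had nearly the same log2 fold change in ESCs and macrophages and less alike values in NPCs. RNERVK23-int minus RLTR30D_RN was -0.04 (ESCs), 0.17 (macrophages) and -0.80 (NPCs). As independent rows their difference would have an SE of 0.19, 0.39 and 0.49 in that order, but the rows come from the same libraries and may share reads, so this SE is only a scale. The base mean of RNERVK23-int was 0.649 times that of RLTR30D_RN in ESCs, 1.01 times in macrophages and 0.703 times in NPCs. Lengths of the 2 repeats were not used here, so these ratios are compared between tables and not read as levels per length. In the numerator group of NPCs the implied ratio was 0.415, against 0.724 in the denominator group.

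For 10 other internal parts set beside an LTR of their own family, the absolute difference between the partners had a median of 0.37 (ESCs), 0.22 (macrophages) and 0.16 (NPCs). In ESCs all 10 differed by more than the pair, up to 1.36 for ETnERV-int and RLTRETN_Mm. In macrophages 5 of the 10 differed by more, and in NPCs 0 did, where the highest was 0.64 for RLTR44-int and RLTR44A. As RNERVK23-int and RLTR30D_RN were set together by these same values, nothing is read from these counts. ETnERV-int and MMETn-int were both set beside RLTRETN_Mm, so the 10 differences are not all separate. IAPEz-int and IAPLTR1_Mm, of the intracisternal A particles, and RLTR4_MM-int and RLTR4_Mm, related to murine leukaemia virus, were within 0.01 of each other in macrophages. An internal part and an LTR with like values are thus seen elsewhere in these tables. Unlike these partners, RNERVK23-int and RLTR30D_RN are of separate classes, and whether they belong to the same element was not tested.

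**Figure D4:**
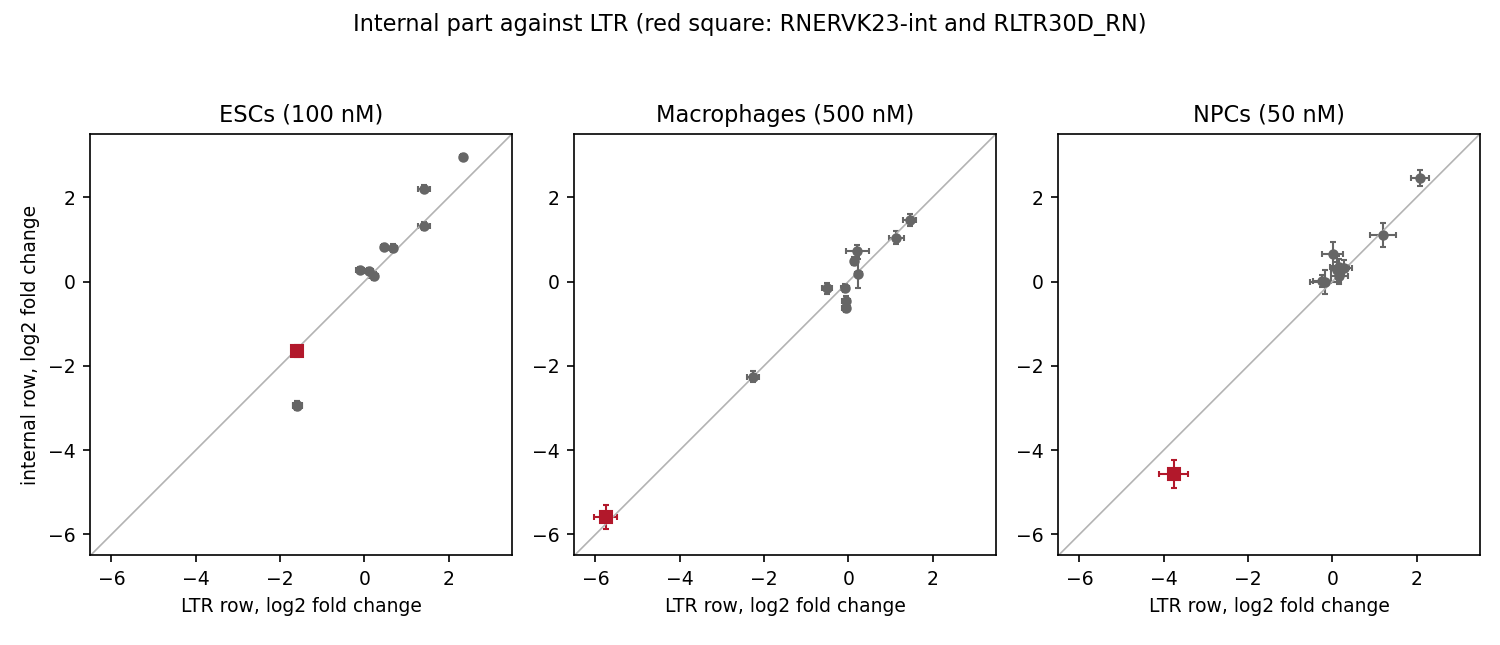
Log2 fold change of an internal part (y axis) against that of an LTR set beside it (x axis), in each cell type. The red square is RNERVK23-int with RLTR30D_RN, rows of separate classes that were set together by their values. Grey marks are 10 internal parts with an LTR of their own family. Bars are 1 SE, and the grey line marks equal values. The pair lies near the line in ESCs and macrophages and 0.80 below it in NPCs.

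RNLTR23 bears the same number as RNERVK23 in its name and is another LTR described in rat, of class ERVK. It had no read in ESCs and base means of only 0.19 in macrophages and 0.06 in NPCs in the authors' deposited table. It thus had almost no reads beside the 3304 and 1012 of RNERVK23-int in the same tables, and its 2 fold changes carry no adjusted p. Neither the position of the copies nor their flanking sequences were examined here.

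The other tested rows named for the rat lay between -0.36 and 0.41, nearer to 0 than the pair in each cell type. RLTR14_RN, an ERV1 LTR, was at -0.36 ± 0.10 (ESCs), 0.16 ± 0.09 (macrophages) and 0.06 ± 0.19 (NPCs) in the authors' deposited table. LTR72_RN, also ERV1, was at -0.06 ± 0.12, -0.13 ± 0.15 and -0.16 ± 0.22 in that order, and LTR10_RN, an ERVK LTR, at 0.32 ± 0.13, -0.17 ± 0.12 and 0.41 ± 0.17 in the authors' deposited table. Of the 3 rows tested, RLTR14_RN in ESCs was the only call. With RNLTR23 untested, these 4 are all the rat-named rows beside the members.

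Within their classes the rest of the rows had calls on both sides, with more negative than positive calls among the ERV1 rows. Of 271 tested ERVK rows in ESCs, members apart, 58 were called positive and 57 negative, with a median of -0.0046. In macrophages it was 49 and 52 of 276 with a median of -0.03, and in NPCs 28 and 22 of 275 with a median of 0.09. Among the 36 ERVK internal parts, 12 were positive and 13 negative in ESCs, 9 and 11 in macrophages and 9 and 4 in NPCs. Their most negative values were -2.95 in ESCs, -1.89 in macrophages and -0.83 in NPCs, beside -1.64, -5.59 and -4.57 for RNERVK23-int in the authors' deposited table. The ERV1 rows are the class of the RLTR30 LTRs. They had 11 positive and 20 negative of 103 in ESCs, 8 and 26 of 107 in macrophages and 7 and 9 of 107 in NPCs. Their medians were -0.06, -0.07 and -0.01 in that order. Over all tested rows 10.2% were called positive and 12.0% negative in ESCs. It was 13.3% and 12.5% in macrophages, and 4.96% and 6.81% in NPCs. Whether a class departs from these shares was not tested.

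No row outside the pair came near its values over the 3 cell types, though smaller values in like proportion were seen in other rows. The likeness of a row was measured as the Euclidean distance of its 3 log2 fold changes from the mean of the pair, over 1113 rows tested in all 3 tables. The members of the pair were 0.82 apart, and their mean was 7.23 from 0. The nearest other row, the ERVK LTR RLTR11A, was 4.96 away, at -0.61 ± 0.07 (ESCs), -2.22 ± 0.14 (macrophages) and -0.75 ± 0.17 (NPCs) in the authors' deposited table. SRV_MM-int, an ERVK internal part, was 5.15 away, and the DNA transposon hAT-N1_Mam 5.20. MamTip3B, also a DNA transposon, followed at 5.33 and LTR58, an ERV1 LTR, at 5.51. By cosine similarity, which leaves out size, other rows were closest among 123 with an absolute value of at least 1 in some table. X15_LINE, an L2 element, had a similarity of 0.996 with the mean of the pair, at -0.47 ± 0.20 (ESCs), -1.19 ± 0.11 (macrophages) and -0.86 ± 0.29 (NPCs) in the authors' deposited table. LTR84a, Arthur1B and RLTR19-int had similarities of 0.995, 0.994 and 0.980. Rows picked by cosine similarity have the order macrophages, NPCs, ESCs largely because of that choice, so nothing is read from it. Of the rows nearest by distance, RLTR11A, MamTip3B and LTR58 had this order, and SRV_MM-int and hAT-N1_Mam did not. Besides the pair, hAT-N1_Mam alone was below -1 in all 3 tables, at -1.07 ± 0.24, -1.30 ± 0.21 and -1.42 ± 0.35 in the authors' deposited table. Its base means ran from 26.1 to 55.3. Its values were of about the same size in each cell type, unlike those of RNERVK23-int and RLTR30D_RN.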

How the data were processed

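Groups and replicate numbers of the 18 libraries were taken from the sample titles. Build mm10 and the tools DESeq2, featureCounts, TopHat2 2.0.13, Bowtie2, deepTools and Trim Galore are named, without roles, per the submitters' processing notes. Poly(A) RNA was made into stranded libraries and read from both ends, per the labels' protocols. Per the file headers, the authors' deposited columns are those of a DESeq2 result: a base mean (a signal: mean normalised coverage of the row in reads), a log2 fold change with its standard error, a Wald statistic (a score), a p-value and an adjusted p-value. The sources used here do not give how strand and reads that fit more than 1 copy or row were handled, and related rows may share reads. Depth per library was not analysed here.

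Python 3.11.15, pandas 2.3.3 and numpy 2.4.6 were used. Computed here were counts of members, shares of the summed base mean, group levels, intervals of 1.96 SE, differences, distances and a coefficient of variation. The coefficient is the SE in natural log units times the root of 1.5. For the denominator group, 2 times the base mean was divided by the sum of 1 and 2 to the power of the signed log2 fold change. The Benjamini-Hochberg code was tested on simulated data. The plan's branch for deposited comparisons was used, since the tables hold no counts per library. The members, lists and alternatives were chosen with earlier results of these data known. Named were all members, the row next to the pair in each table, the 5 rows nearest to the pair, 10 partners of internal part and LTR, and the rat-named rows. Repeat sequences and coordinates were not used here.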

Additional observations from a re-analysis of the deposited data

How the results depend on the processing

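Of 39 alternative values for 12 results, 27 stayed within 1.5 times of the count or ratio, or within 1 SE of the value. The other 12 moved further. A change of sign was possible for log2 values only, not for counts or ratios, and 0 of them changed. As the pair was chosen for these values, its kept sign is no test. With an adjusted p under 0.01, 2 members were called in ESCs in place of 4. The next setting was an adjusted p from DESeq2 under 0.05 with an absolute log2 fold change of at least 1. It called 2 members in ESCs and 2 in macrophages, in place of 4 each, and in both these were RNERVK23-int and RLTR30D_RN. The share of all tested rows at these settings was not computed. As the pair was chosen from these contrasts, nothing is read from the counts. The pair's mean lay at -1.53 (ESCs), -5.52 (macrophages) and -4.14 (NPCs) relative to the median of the other RLTR30 rows. With the other rows weighted by base mean it was -5.81 in macrophages. In NPCs it was -4.54 with RNERVK23-int alone and -3.74 with RLTR30D_RN alone. By cosine similarity, which ignores size, 0 of the 5 rows most like the pair were among the 5 by distance; these were X15_LINE, LTR84a, Arthur1B, RLTR19-int and UCON49, so the likeness list depends on the measure. Among the 39, alternatives of 2 kinds were chosen after seeing the data, and some of these are among the 12 that moved. Turning the contrast of 1 table at a time gave the numerator groups a range of 4.11-fold to 48.4-fold in place of 1.34-fold. Shares taken from the summed level of the same group gave a range over the cell types of 13.2-fold for the denominator groups and 1.43-fold for the numerator groups. No paired analysis was possible because the tables carry no values per library, and leaving out replicates was not run for the same reason.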
